A study of Mus musculus with 42 samples.

Results

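The oxidative phosphorylation subunit genes were read in the aorta and skeletal muscle of healthy, diabetic and treated mice. They were taken from the array by symbol. A gene counted if its name was Ndufa, Ndufb, Ndufc, Ndufs or Ndufv with a number, Sdha to Sdhd, any Uqcr, a Cox4 to Cox8 subunit or any Atp5, and Cox8b and Cox7a1 were left out. This gave 81 genes of the 21186 with a symbol on the array, carried by 116 probes. Cox7b2 and Cox8c did not pass the filter on dim probes, so 79 of the 16167 genes that passed were tested. Complex I had 36 tested genes, complex II 4, complex III 8, complex IV 14 of 16, and complex V 17.

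Nearly all of these genes encode nuclear subunits of the respiratory chain and of ATP synthase in the inner mitochondrial membrane. Atp5s and Atp5sl came in by their older symbols and are counted with complex V, but RefSeq names them Dmac2l and Dmac2, after assembly of the complex I membrane arm, and they are not ATP synthase subunits. Complexes I (NADH dehydrogenase) and II (succinate dehydrogenase) pass electrons to ubiquinone, complex III passes them to cytochrome c, and complex IV (cytochrome c oxidase) passes them to oxygen. Complexes I, III and IV pump protons, and complex V (ATP synthase) uses the proton gradient to make ATP. Several subunits have tissue forms encoded by separate genes. Skeletal muscle and brown fat are rich in mitochondria, and brown fat lets the gradient run down through the uncoupling protein Ucp1 to make heat.

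Adult male mice made up 7 groups, with 3 aorta and 3 skeletal muscle samples each, giving 42 arrays. Healthy mice were C57BL/6, and diabetic mice were KK/Ay, a strain that becomes diabetic spontaneously. Strain and diabetes therefore cannot be told apart in a comparison of these groups. Macroangiopathy mice were KK/Ay given a high-fat diet and, in drinking water, the nitric oxide synthase inhibitor L-NAME. These 3 groups received saline by gavage. The other 4 groups were the same macroangiopathy model gavaged with SHENQI (a herbal formula), yangyinyiqi (its ginseng, Astragalus, rehmannia, trichosanthin, hawthorn and yam part), huoxue (its salvia miltiorrhiza and rhubarb part) or rosiglitazone, an agonist of the nuclear receptor PPARG. All 4 were compared with the same 3 macroangiopathy samples per tissue. The labels do not tie an aorta and a muscle sample to 1 mouse.

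Levels are normalized log2 intensities of 1-colour arrays, and a difference of 1 is a doubling. They compare 1 gene between arrays and not 1 gene with another. Each sample is 1 array, groups have n = 3, and errors of differences are standard errors from a limma fit of all 42 arrays. A gene was called at an adjusted p below 0.05, with Benjamini-Hochberg adjustment over 16167 genes.

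Median spot intensity ran from 65 to 131 over the arrays, and 49.0% to 73.5% of spots were well above background. Muscle arrays carried their markers: actin Acta1 lay between 17.3 and 17.7 in all 21. Aorta arrays carried smooth muscle markers at uneven levels, with myosin Myh11 between 9.15 and 15.4. They also carried brown fat markers, since Ucp1 lay between 15.0 and 17.5 in aorta against 5.29 to 8.93 in muscle. Acta1 (10.6 to 16.9) and the atrial myosin Myl7 (6.18 to 15.2) varied among aorta arrays too. Some markers were at background on part of the arrays. The brown fat marker Elovl3 was above it in 14 aorta and 5 muscle arrays, and Myl7 in 3 muscle arrays. The arrays sat on 11 slides. Arrays of 3 slides, chosen with earlier results known, stood apart in some members. Slide 1 held huoxue muscle 1 to 3 and rosiglitazone muscle 1. Slide 2 held healthy muscle 1 and 2 and rosiglitazone muscle 2 and 3. Slide 3 held healthy aorta 1 and 3, diabetic aorta 1 and SHENQI aorta 1. All huoxue and rosiglitazone muscle arrays and 2 of 3 healthy muscle arrays were thus on them, and no diabetic or macroangiopathy muscle array was. In muscle only the healthy group had arrays both on and off these slides.

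The first comparison asked how subunit levels differed between the tissues of healthy mice. Cox6a2, Atp5g1, Cox8a and Cox6a1, tissue forms of complexes IV and V, had the largest differences of the members, in both directions, and most other members were not called. Of the 79 genes, 6 were higher and 7 lower in aorta, or 16.5%, against 30.6% of all genes tested. Their median difference, aorta minus muscle, was -0.01, against 0.03 for all genes. By complex, 2 of 36 in complex I were higher, 4 of 14 in complex IV were higher and 1 lower, and 6 of 17 in complex V were lower. None of complexes II and III was called.

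Cox6a1 and Cox6a2 are the widespread and the heart and skeletal muscle forms of a complex IV subunit. In healthy aorta Cox6a1 was at 17.87, 18.08 and 18.37, and in healthy muscle at 16.16, 14.86 and 14.81. It was 2.83 ± 0.31 (SE) higher in aorta (limma, adjusted p = 2.23e-08), and over all 7 groups the aorta arrays (17.08 to 18.37) lay above the muscle arrays (14.37 to 16.16). Cox6a2 was at 12.53, 12.58 and 14.28 in healthy aorta and at 17.87, 17.87 and 17.75 in healthy muscle, a difference of -4.70 ± 1.06 (adjusted p = 0.000846). Over all groups it ran from 8.52 to 16.82 in aorta and only from 17.36 to 17.87 in muscle, near the top of the scale, where quantile normalization leaves few distinct values. The aorta levels of Cox6a1 lay near the top too, with the same highest value of 18.37 on slide 3 and on the other slides.

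Cox8a, the widespread form of another complex IV subunit, followed Cox6a1. It was at 16.21, 16.82 and 17.51 in healthy aorta and at 14.54, 13.69 and 13.58 in muscle, a difference of 2.91 ± 0.31 (adjusted p = 1.03e-08). Among the other complex IV forms, Cox6b2 (1.0 ± 0.24, adjusted p = 0.00176) and Cox7a2 (0.68 ± 0.26, adjusted p = 0.0448) were higher in aorta. Cox6b2 is known for its expression in testis, and its levels here were 8.31 to 8.71 in healthy aorta. Cox4i1, the common form of the subunit that binds ATP and ADP, was at 16.43, 16.46 and 17.11 in aorta and 16.28, 16.31 and 16.09 in muscle and was not called (0.44, adjusted p = 0.172). Its lung-type form Cox4i2 was near the floor in aorta (4.87 to 6.12) and muscle (5.46 to 6.30). Cox6b1, Cox7b and Cox7a2l were not called either, with differences from -0.02 to 0.36. Ndufa4, counted here with complex I by its name but also described as a complex IV subunit, was at 0.01 and not called.

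In complex V, 3 genes make the same mature membrane ring subunit c. Atp5g1 was at 12.05, 11.27 and 12.09 in healthy aorta and at 15.10, 15.37 and 14.92 in muscle, a difference of -3.32 ± 0.34 (adjusted p = 4.65e-09). Atp5g2 differed by -1.02 ± 0.13 (adjusted p = 3.62e-07) and Atp5g3 by -0.75 ± 0.27 (adjusted p = 0.0366). All 3 were thus lower in aorta, Atp5g1 most, and over all groups Atp5g1 did not overlap between aorta (11.27 to 14.09) and muscle (14.83 to 15.53). The stalk subunit Atp5j was lower by -1.41 ± 0.18 (adjusted p = 4.13e-07), Atp5s (Dmac2l) by -0.98 and the central shaft subunit Atp5c1 by -0.67.

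A list of 18 subunits was followed in every comparison. Most carry catalytic sites or form the frame of a complex, but it also holds accessory subunits such as Ndufb8 and Ndufa9 and leaves out catalytic ones such as Ndufs8. These 18 listed subunits had a median difference of 0.18, and 13 of them lay above 0. Ndufb8, an accessory subunit of the complex I membrane arm, was higher in aorta (0.79 ± 0.26, adjusted p = 0.0202) and Atp5c1 lower. The Ndufb8 arrays overlapped between the tissues, and of its 2 probes only the one at 1.42 was called. The remaining 16 were not called, among them the NADH-binding Ndufv1 (0.24), the flavoprotein Sdha (0.54) and Uqcrc1 of the complex III core (0.46). Ndufv3, the second complex I gene called, was 1.13 higher, but its probes ran from -0.10 to 1.99.

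**Figure D1:**
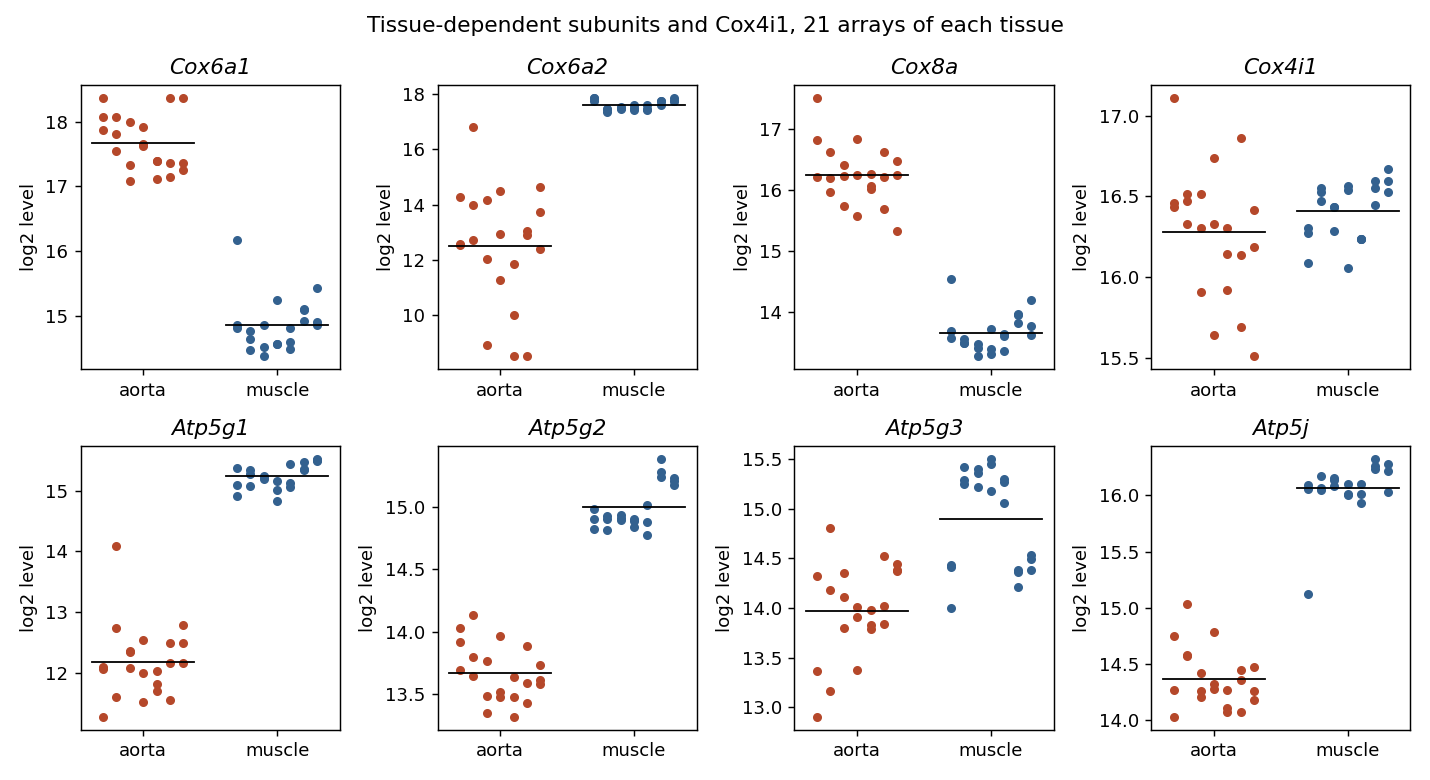
Normalized log2 intensity (vertical axis) of 8 complex IV and V genes in aorta and muscle. Each point is 1 array, offset by group, and lines are means of 21 arrays. Cox6a1 and Cox8a lie higher in aorta, and Cox6a2, Atp5g1, Atp5g2 and Atp5j lie higher in muscle. Atp5g3 has the higher mean in muscle but overlaps, and Cox4i1 overlaps.

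Promoter sequence of the members that differed in opposite directions between the tissues is shown for Cox6a1 and Atp5g1, as RefSeq gives it on GRCm38.p6, the 250 bases before the gene start, on the minus strand. Cox6a1 lies at chr5:115348959-115349208 and Atp5g1 at chr11:96075632-96075881. Capitals mark matches to the motifs searched.
Cox6a1: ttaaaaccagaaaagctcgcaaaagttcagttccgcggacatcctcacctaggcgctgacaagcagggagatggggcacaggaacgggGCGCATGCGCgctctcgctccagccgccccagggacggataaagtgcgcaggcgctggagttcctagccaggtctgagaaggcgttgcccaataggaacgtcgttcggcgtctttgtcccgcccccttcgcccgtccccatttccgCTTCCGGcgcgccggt
Atp5g1: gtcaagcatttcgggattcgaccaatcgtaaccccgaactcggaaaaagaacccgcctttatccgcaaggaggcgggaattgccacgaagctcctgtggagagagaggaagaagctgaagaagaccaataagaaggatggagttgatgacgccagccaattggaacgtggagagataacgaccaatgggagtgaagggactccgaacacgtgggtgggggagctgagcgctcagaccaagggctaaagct
The Cox6a1 window is 62.8% G and C and holds the NRF1 motif GCATGCGC on both strands in overlap, 160 and 162 bases before the start, and the GABP motif CCGGAAG on the opposite strand 16 bases before it. The Atp5g1 window is 53.6% G and C and holds none of the motifs searched.

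NRF1, GABP, YY1 and ERR are transcription factors known for binding near genes of mitochondrial proteins. Promoters were matched for 67 of the 81 members and for 27025 genes in all. For these counts both strands of 300 bases were searched for exact letters, the 250 before the gene start and those that follow it. GCATGCGC (NRF1) was in 10 member promoters, 14.9% against 2.80% of all promoters. CCGGAAG (GABP) was in 15, 22.4% against 9.12%. AAGATGGC (YY1) was in 10, 14.9% against 2.88%. At least 1 of these 3 was in 30 member promoters, 44.8% against 13.8%. TCAAGGTCA (ERR) was in 2, 2.99% against 0.407%. CAGCTG, a muscle E-box that is its own reverse complement, was in 5, 7.46% against 16.1%. By complex, YY1 matches fell in complex I (7 of 32 promoters) and complex V (3 of 16), while complexes II, III and IV had none among 3, 5 and 11. These are matches of letters and not measured binding.

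Among genes that work beside the chain, the carriers and porins had the most calls for their number, and the other mitochondrial lists lay near or under the 30.6% of all genes called. Of 9 carriers and porins, 6 were lower and 1 higher in aorta. The ADP/ATP carriers ran opposite ways, Slc25a4, the muscle and heart form, at -2.40 and Slc25a5 at 1.65, and the muscle mitochondrial creatine kinase Ckmt2 was at -5.08. Of 17 citric acid cycle genes 2 were higher, citrate synthase Cs (1.0) and Dlst (0.88), and Idh2 was lower (-1.37). Among 30 assembly factors 2 were higher and 4 lower. Of 13 other electron carriers 4 were higher, led by the glycerol phosphate dehydrogenase Gpd2 (1.82). Of 15 regulators, Esrrb, Esrrg and Ppargc1a were among 4 lower and Ppargc1b (1.37) was the only one higher. None of the 4 mitochondrially encoded genes with a probe, of 13, was called. All 10 skeletal fibre and 6 slow fibre markers were lower in aorta, and 4 of 6 brown fat, 4 of 6 heart, 4 of 6 fat cell and 5 of 7 smooth muscle markers were higher. Their part in these differences was not tested.

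Within aorta the member genes moved together from array to array more than from group to group. The member mean is the mean over the 79 genes of each gene's level minus its own mean over 42 arrays. It ran from -0.80 in huoxue aorta 2 to 0.30 in huoxue aorta 1, so the lowest and highest arrays came from 1 group. The median SD of a member within a group was 0.20 to 0.60 in aorta. In muscle it was 0.07 to 0.13, except 0.32 in healthy muscle. For all genes it was 0.15 to 0.34 in aorta and 0.11 to 0.13 in muscle, except 0.27 in healthy muscle.

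**Figure D2:**
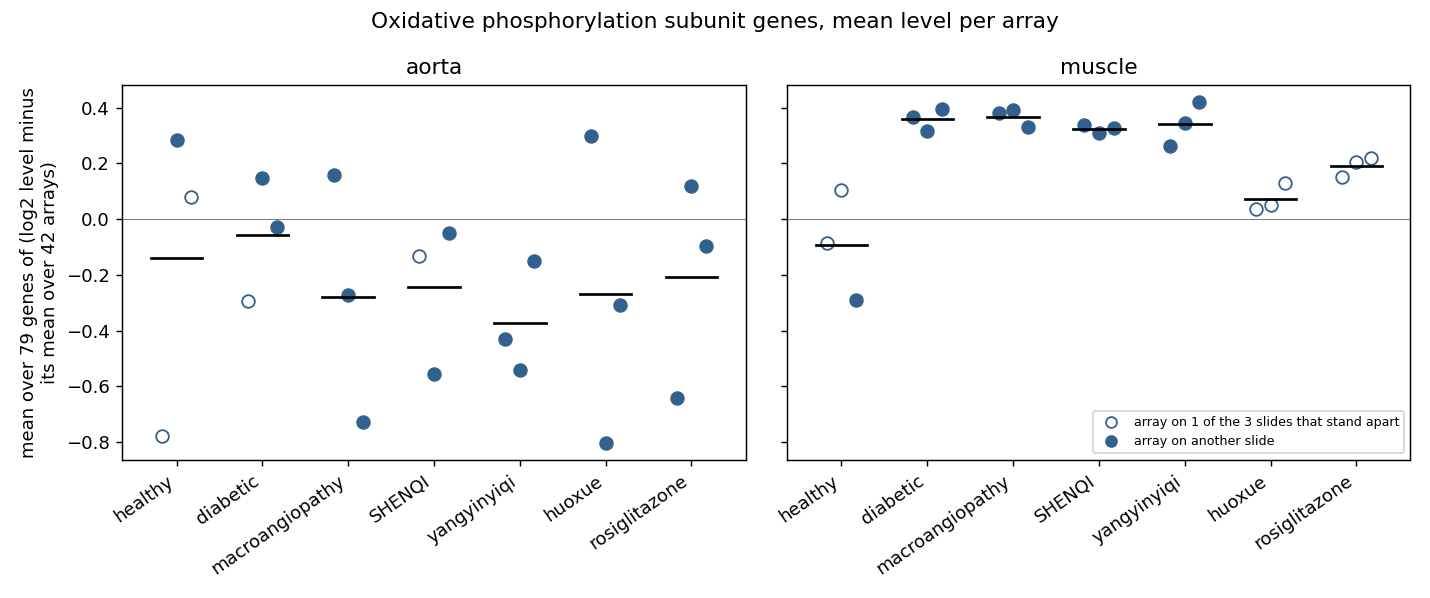
Member mean per array (vertical axis, log2 level relative to the mean of 42 arrays) by group and tissue. Points are arrays, bars are means of 3, and open circles mark the 3 slides that stand apart. Aorta groups overlap throughout, and in muscle the healthy, huoxue and rosiglitazone arrays lie at or below 0.22, under all other groups.

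The member mean followed the brown fat markers Ucp1, Cidea, Elovl3 and Dio2 across the 21 aorta arrays. Pearson's r was 0.72 and Spearman's rho 0.70. The r was also 0.72 without the 2 arrays farthest from the median, 0.95 after group means were subtracted, and 0.78 over the 17 arrays not on slide 3. The arrays share their labelling, normalization and tissue piece, so these values are a description. For the fat cell list r was 0.73, for endothelial 0.68, heart 0.61, slow fibre 0.38, skeletal fibre 0.20, smooth muscle 0.09 and macrophage -0.33. After group means were subtracted, r was 0.80 for fat cell, 0.76 for endothelial and 0.62 for heart, so those lists followed the members within groups too. Fewer cells of a type and less RNA per cell cannot be told apart in such pieces. The part of any cell type in the member levels was not tested.

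Gene by gene, 59 of 79 members (74.7%) had r above 0.5 with the brown fat list, against 1880 genes (11.6%) of all tested, and the median r was 0.65 against 0.003. Listed genes of every complex were among them: Cox5a and the iron-sulphur subunit Sdhb at 0.85, the catalytic ATP synthase subunits Atp5a1 at 0.72 and Atp5b at 0.66, Ndufs1 at 0.65 and Uqcrc1 at 0.60. Cox6a1 was at 0.62. Of the 7 members called lower in aorta than in muscle, Atp5c1 was among them too, at 0.58. The other 6 were not, with Atp5g1 at -0.35, Atp5j at 0.01, Atp5g3 at 0.07, Cox6a2 at 0.14, Atp5g2 at 0.20 and Atp5s at 0.23. Cox6a2 had r of 0.80 with the slow fibre list and 0.69 with the skeletal fibre list, and Atp5g1 had 0.75 and 0.67. The Cox6a2 level was highest in diabetic aorta 2 (16.82) and lowest in yangyinyiqi aorta 1 (8.52) and huoxue aorta 2 (8.53).

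**Figure D3:**
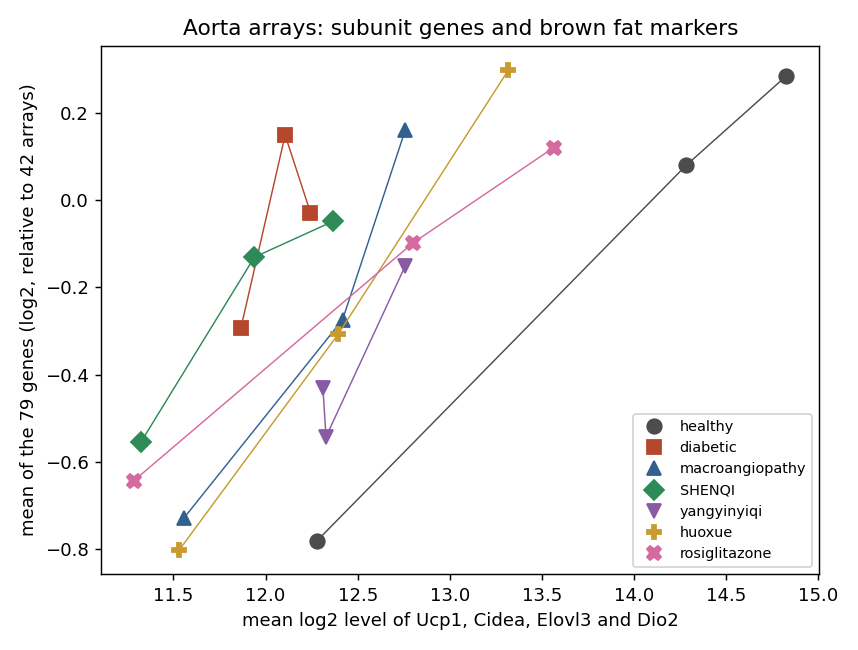
Member mean (vertical axis, log2 relative level) against the mean log2 level of 4 brown fat markers (horizontal axis) in 21 aorta arrays. Lines join the 3 arrays of a group. The member mean is higher where the markers are higher (r = 0.72), also within groups (r = 0.95).

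Diabetic KK/Ay and healthy C57BL/6 aorta differed in few members. Of 79 genes 2 were higher and 1 lower in diabetic aorta, 3.80% against 12.1% of all genes, and the median was 0.03 against 0.02. Ndufa3, a complex I accessory subunit, was at 10.79, 10.63 and 11.02 in healthy and 10.23, 10.33 and 10.10 in diabetic aorta, and fell by 0.60 ± 0.18 (adjusted p = 0.029) without overlap. In this comparison 18% of all genes did not overlap. Cox7c, a small membrane subunit of complex IV, was at 7.84, 12.24 and 8.92 in healthy and 10.39, 12.95 and 12.53 in diabetic aorta. It was 2.29 ± 0.72 higher (adjusted p = 0.0326), but the arrays overlapped and the low ones were on slide 3. Atp5g1 was 1.01 ± 0.34 higher (adjusted p = 0.0475), and diabetic aorta 2 (14.09) stood above the rest. The calls rested on single arrays: from 0 to 6 members were called when 1 array was left out. It was 0 without diabetic aorta 3, 1 without healthy aorta 1 or diabetic aorta 2, and 6 without healthy aorta 2. For fits with arrays left out, a batch term or a slide block, here and below, the share of all genes called is not given. Their counts cannot be read as particular to the members.

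A fit of the 21 aorta arrays alone called none of the members and 3.36% of genes. In the fit of 42 arrays 9 members had an unadjusted p below 0.05, against 4173 of all 16167 genes. Within slide 3 (1 diabetic and 2 healthy arrays) the member median was 0.06, with 45 of 79 genes above 0. Without slide 3 (2 diabetic and 1 healthy) it was -0.29, with 18 above 0. Of the 18 listed genes 10 lay above 0, with a median of 0.02 and none called. Sdhb did not overlap (12.74, 13.61 and 13.33 in healthy, 12.23, 12.64 and 12.52 in diabetic aorta) and missed the threshold (-0.77, adjusted p = 0.153). Beside this, 5 of 7 smooth muscle markers were higher in diabetic aorta, among them Myh11 by 2.48. Of the brown fat markers Elovl3 (-5.22) and Dio2 (-1.89) were lower, while Ucp1, Cidea, Cox8b and Cox7a1 were not called. Elovl3 was above background in only 14 of the 21 aorta arrays. Healthy aorta 1 had the lowest smooth muscle list of all aorta arrays, 9.23 against 11.70 to 13.93. Their part in the member values was not tested. Of the related lists, Idh2 and Slc25a4 were higher and Coq2 and Ttc19 lower.

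In skeletal muscle the members lay higher in diabetic than in healthy mice in all 5 complexes. Of the 79, 69 were above 0, the median difference was 0.39 against 0.03 for all genes, and the member mean was 0.32 to 0.39 in diabetic against -0.29 to 0.10 in healthy arrays. The number called was 6, all higher, which is 7.59% of the members against 7.9% of all genes and so no more than the background. In 45 members all 3 diabetic arrays lay above all 3 healthy ones, which held for 16.2% of all genes. Above 0 were 32 of 36 genes of complex I (median 0.47), all 4 of complex II, all 8 of complex III, 10 of 14 of complex IV and 15 of 17 of complex V.

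The 6 genes called are accessory or small subunits of complexes I, IV and V. Ndufb5, of the complex I membrane arm, was at 9.83, 10.43 and 10.38 in healthy and 11.86, 11.58 and 11.94 in diabetic muscle, 1.58 ± 0.37 higher (adjusted p = 0.00625). Cox7c was at 9.38, 10.06 and 10.59 in healthy and 12.85, 12.76 and 12.73 in diabetic muscle, 2.77 ± 0.72 higher (adjusted p = 0.0136). Atp5g3 reached at most 14.43 in healthy muscle and was at 15.28, 15.24 and 15.42 in diabetic muscle, 1.04 ± 0.27 higher (adjusted p = 0.0159). None of these 3 overlapped between the groups. Atp5j2 (0.88), Ndufa12 (0.99) and the ATP synthase epsilon subunit Atp5e (0.80) were called too.

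Of the 18 listed genes 17 lay above 0, with a median of 0.50, and none was called. Ndufv1 was at 14.21, 14.67 and 14.52 in healthy and 14.93, 14.98 and 15.19 in diabetic muscle, without overlap (0.57). The complex II membrane anchor Sdhc was at 12.66, 12.95 and 12.33 against 13.46, 13.48 and 13.68 (0.89, adjusted p = 0.15). Atp5o, of the stator, was at 14.28, 15.05 and 15.31 against 15.81, 15.76 and 15.86 (0.93, adjusted p = 0.11). All 3 were higher in every diabetic array. Sdhb overlapped (0.07), and Cox5b was the listed gene below 0 (-0.05). Cox6a1 was at 16.16, 14.86 and 14.81 in healthy muscle, and its difference of -0.65 (adjusted p = 0.221) rested on the first of these.

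Aorta arrays spread more than muscle arrays, and the fit of 42 arrays takes 1 spread for both. In a fit of the 21 muscle arrays alone, chosen after this was seen, 41 members were higher and 1 lower, or 53.2% against 23% of all genes. They were 21 genes of complex I, 2 of II, 3 of III, 6 higher and 1 lower of IV, and 9 of V. Of the listed genes 10 were higher, such as Ndufv1 (adjusted p = 0.00105), Sdhc (0.000301), Atp5b (0.00181), Atp5a1 (0.00542) and Cox5a (0.0331). Sdha, Cox4i1 and Uqcrc1 were not called there. The lower gene was Cox6a2 (-0.39), which sits near the top of the scale.

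Slides bore on this comparison, since no slide held both groups and 2 of 3 healthy arrays were on slide 2. With a batch term for 3 slides, chosen with earlier results known, the member median was 0.36 but 1 member was called, Atp5j (0.62, adjusted p = 0.0219), and none of the 6. Ndufb5 was then at 1.20 (adjusted p = 0.0524) and Cox7c at 1.16 (adjusted p = 0.134). With slide as a random block Atp5g3, Cox7c and Ndufb5 stayed called. Without the arrays of the 3 slides, 3 diabetic arrays stood against healthy muscle 3 alone, with a median of 0.60 and 74 of 79 genes above 0. That array had the lowest member mean (-0.29) and the highest macrophage list in muscle, 9.47 against 7.86 to 8.71. Without it the member median was 0.24. Leaving out single arrays gave 1 to 5 called members, 1 without healthy muscle 1, 3 without diabetic muscle 1 or 2, and 2 without diabetic muscle 3.

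**Figure D4:**
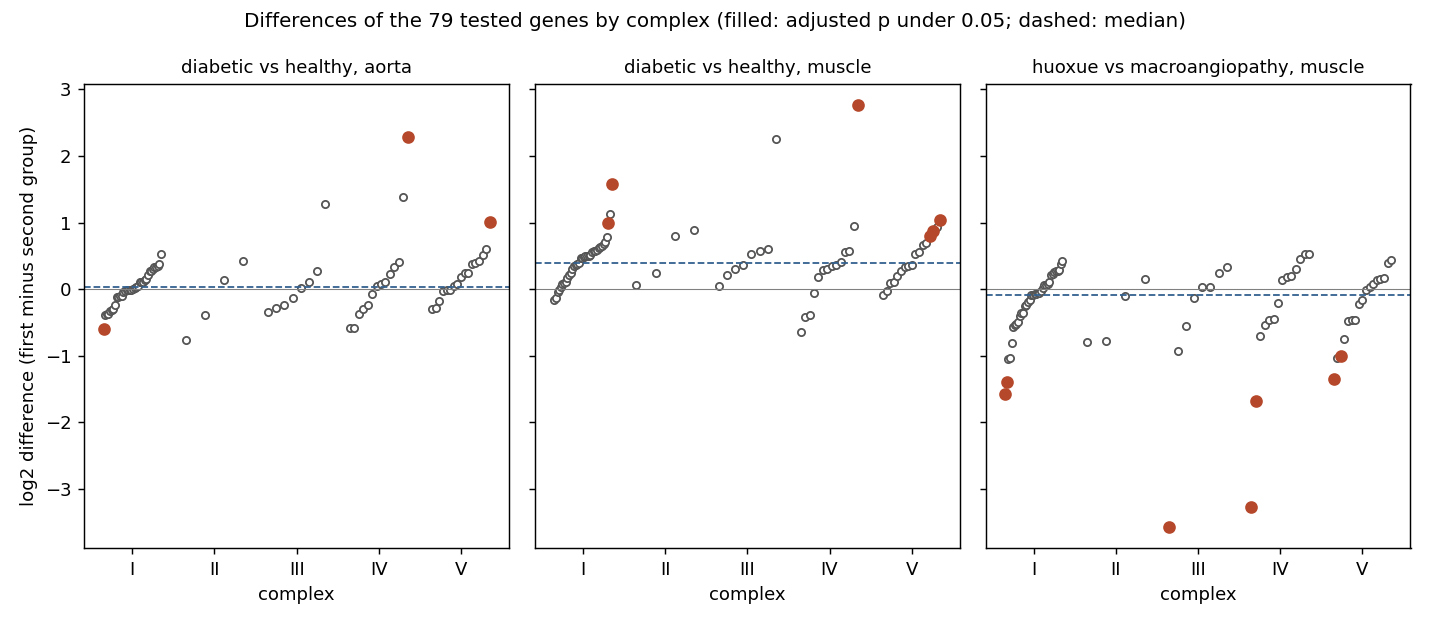
Log2 difference of each member (vertical axis) by complex (horizontal axis) in 3 comparisons. Points are genes, filled where called, and dashed lines are medians. Members lie around 0 in aorta (median 0.03) and mostly above 0 in diabetic muscle (0.39), and in huoxue muscle a few lie far below 0.

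For the genes around the chain in diabetic muscle, the background was 7.9% of all genes called in the fit of 42 arrays and 23% in the muscle-only fit. Of 30 assembly factors 5 were higher, including Ecsit (1.18), Cox10 (0.98) and Cox18 (0.97), and in the muscle-only fit 14 were higher and 1 lower. Of 17 citric acid cycle genes none was called in the fit of 42 arrays and 8 were higher in the muscle-only fit. For the 13 other electron carriers Coq2 was lower (-0.59), and the muscle-only fit gave 9 higher and 1 lower. Of 15 regulators none was called, and 3 were higher in the muscle-only fit, under the share of all genes. The porin Vdac2 was higher (0.62). The 4 mitochondrially encoded genes had a median of -0.32 and none was called, 1 lower in the muscle-only fit. The slow fibre list was at 13.98 to 14.22 in healthy and 14.78 to 15.13 in diabetic muscle, and all 6 of its genes were higher in the muscle-only fit, with 4 of 5 macrophage markers lower. In the fit of 42 arrays the markers called were those of fat cells, Cfd (-3.81, adjusted p = 0.000437) and Retn (-2.91, adjusted p = 0.00336) lower and Lep (1.74, adjusted p = 0.0363) higher. Their part in the member values was not tested.

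The diabetic effect itself was compared between tissues. Of 79 members 71 had a smaller difference in aorta than in muscle (median -0.45, against -0.01 for all genes), and none was called, against 0.891% of all genes. With an unadjusted p below 0.05 there were 7, against 2124 of all 16167 genes. Ndufv2 (-0.75, adjusted p = 0.174) and Ndufb5 (-1.36, adjusted p = 0.237) had the smallest p. None of the 18 listed genes was above 0 in this contrast (median -0.49). Without healthy aorta 1, 3 were called, and the share of all genes in that fit is not given.

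Adding high-fat diet and L-NAME to KK/Ay called no member. All 3 macroangiopathy aorta arrays were on slide 8, which held no diabetic or SHENQI array, so slide and group cannot be told apart in those aorta comparisons. In aorta 69 of 79 lay below 0 (median -0.24, against 0.01 for all genes), including all 18 listed genes (median -0.29), while 0% of genes were called. At an unadjusted p below 0.05 there were 3, against 581 of all 16167 genes. They were Cox6a2 (-2.81 ± 1.06), Atp5g2 (-0.33 ± 0.13) and Atp5j (-0.43 ± 0.18). These 3 are members that were higher in muscle. Cox6a2 was at 12.73, 16.82 and 13.98 in diabetic and 14.17, 12.03 and 8.91 in macroangiopathy aorta, with overlap. The median of the skeletal fibre markers was -1.81, of the heart markers -1.71 and of the brown fat markers 0.00. Their part was not tested. The member median was -0.00 without macroangiopathy aorta 3, so the shift rested on that array. In muscle the median was 0.02, with 44 above 0, no member with an unadjusted p below 0.05, and 0% of genes called. The smallest p were those of Uqcrq (0.25 ± 0.17) and Atp5e (-0.29 ± 0.25). The difference between tissues called none (0% of genes). At an unadjusted p below 0.05 it gave 326 of all 16167 genes and, of the members, Uqcrq alone (-0.50 ± 0.24).

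SHENQI and yangyinyiqi called no member against macroangiopathy, and 0% of all genes, in either tissue or between tissues. In aorta SHENQI gave a median of 0.08 with 48 of 79 above 0, and yangyinyiqi -0.07 with 17 above 0. In muscle they gave -0.05 with 23 above 0 and -0.02 with 29 above 0. At an unadjusted p below 0.05 the only member was Cox4i2 under SHENQI in aorta (-0.45 ± 0.18), against 437 of all 16167 genes there. Cox4i2 lay near the floor, above background in 3 macroangiopathy and 1 SHENQI aorta arrays. It was lower on slide 3, which held SHENQI aorta 1, and without that slide its difference was -0.14. The next smallest p in aorta were those of Cox7a2l under SHENQI (0.31 ± 0.17) and Cox6a2 under yangyinyiqi (-1.57 ± 1.06). In muscle Cox6a1 (0.21 ± 0.31) and Ndufa8 (-0.23 ± 0.31) had the smallest p under SHENQI and yangyinyiqi. Within slides the muscle medians were -0.07 for SHENQI (2 against 2 arrays, slide 5) and -0.00 for yangyinyiqi (3 against 1, slide 6), and the aorta median for yangyinyiqi was -0.11 (1 against 3, slide 8).

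Huoxue and rosiglitazone called no member in aorta and 0% of all genes. Their medians were 0.02 and 0.06, with 46 and 51 of 79 above 0. For huoxue no member had an unadjusted p below 0.05, the smallest being Sdhc (-0.49 ± 0.37). For rosiglitazone there was 1, against 988 of all 16167 genes. It was Ndufv2 (0.37 ± 0.18), followed by Cox6a2 (1.90 ± 1.06).

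In muscle, 7 members were lower in huoxue than in macroangiopathy mice, 8.86% against 4.26% of all genes. All 3 huoxue arrays were on slide 1, which held no macroangiopathy array, so treatment and slide cannot be told apart here. They were Uqcrb, Cox7c, Ndufs8, Cox6c, Ndufs3, Atp5o and Atp5g3, from complexes I, III, IV and V. The median of all members was only -0.09 (0.05 for all genes) with 32 above 0, so a few genes differed strongly and most little. Uqcrb, a complex III accessory subunit, was at 14.42, 14.59 and 14.05 in macroangiopathy and 10.53, 10.50 and 11.32 in huoxue muscle, and fell by 3.57 ± 0.95 (adjusted p = 0.0271). Cox7c was at 13.09, 13.45 and 12.58 against 9.41, 9.73 and 10.17, and fell by 3.27 ± 0.72 (adjusted p = 0.00807). Cox6c was at 15.03, 15.28 and 14.62 against 13.14, 13.29 and 13.49, and fell by 1.67 ± 0.48 (adjusted p = 0.0427). None of these overlapped, and neither did 46.2% of all genes. All huoxue arrays lay below all macroangiopathy arrays in 37 members and above them in 20.

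Of the listed genes, Ndufs3 and Atp5o were among the 7. Ndufs3, of the complex I matrix arm, was at 14.32, 14.35 and 14.02 in macroangiopathy and 12.27, 12.86 and 13.38 in huoxue muscle (-1.39 ± 0.30, adjusted p = 0.0067). Atp5o was at 15.76, 15.89 and 15.61 against 14.56, 14.15 and 14.53 (-1.34 ± 0.36, adjusted p = 0.0276). Ndufs8, a catalytic iron-sulphur subunit of complex I that is not on the list, fell by 1.57 and Atp5g3 by 1.01. In the muscle-only fit 24 members were lower and 4 higher, 15.2% of all genes being called. The 4 were Cox5b (0.52), Atp5l (0.44), Atp5g2 (0.39) and Ndufa3 (0.26). With 1 array left out 1 to 3 members were called, 1 without huoxue muscle 1, 2 without huoxue muscle 2 or any macroangiopathy array and 3 without huoxue muscle 3.

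Rosiglitazone called no member in muscle, against 0.0928% of all genes. With an unadjusted p below 0.05 there were 12 members, against 1746 of all 16167 genes. The differences of the same genes stand beside those of huoxue, both taken against the same macroangiopathy arrays: Uqcrb -2.96 (adjusted p = 0.197), Cox7c -2.24 (0.2), Cox6c -1.52 (0.197) and Atp5g3 -0.85. Uqcrb was at 11.18, 11.40 and 11.59 in rosiglitazone muscle, below every macroangiopathy array, while 34.4% of all genes did not overlap. In the muscle-only fit 15 were lower and 1, Atp5g2 (0.29), higher, against 4.55% of all genes.

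The rosiglitazone muscle arrays were on slides 1 and 2, and here too treatment and slide cannot be told apart. With the batch term huoxue called no member, and the rosiglitazone differences of Uqcrb and Cox6c became 0.52 and 0.07. Inside slide 1, huoxue against rosiglitazone (3 against 1 array) had a member median of -0.06 with 29 of 79 above 0. Inside slide 2, rosiglitazone against healthy (2 against 2) had 0.25 with 66 above 0, against 0.04 for all genes. Between tissues, the huoxue and rosiglitazone differences called no member, against 0.13% and 0.0124% of genes. The smallest p were those of Ndufs3 (1.46, adjusted p = 0.163) and Cox7c (3.40, adjusted p = 0.176) for huoxue and Atp5g3 (1.17, adjusted p = 0.452) and Cox7c (2.71, adjusted p = 0.468) for rosiglitazone. At an unadjusted p below 0.05 there were 15 and 9 members, against 1696 and 1450 of all 16167 genes.

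Among the members, Uqcrb and Cox6c were lower on the 3 slides in both tissues. These slides were chosen with earlier results known, so the values describe them and test nothing. In aorta Uqcrb was at 8.38 to 10.99 on the 4 arrays of slide 3 and 12.85 to 14.51 on the other 17. In muscle it was at 10.50 to 11.59 on the 8 arrays of slides 1 and 2 and 13.70 to 14.59 on the other 13. Cox6c was at 12.83 to 14.07 against 14.32 to 15.73 in aorta and 13.14 to 13.91 against 14.44 to 15.28 in muscle. Neither overlapped in either tissue.

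In aorta Cox7c, Atp5g3 and Cox4i2 were also below on slide 3, 5 members in all and none above, while 5.59% of all genes did not overlap, a share near that of the members. In muscle Atp5o, Ndufa6 and Atp5b were also below on slides 1 and 2, 5 in all, with 2 members above, while 4.32% of all genes did not overlap. Cox7c overlapped in muscle, since healthy muscle 3, on slide 7, was at 10.59. Healthy muscle 1 and 2 had Uqcrb at 11.15 and 11.50 on slide 2, and healthy muscle 3 had 13.70 on another slide. Healthy aorta 2, on another slide, had Uqcrb at 14.51 against 8.38 and 10.99 for healthy aorta 1 and 3.

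Probes of 1 gene disagreed in the same comparisons. The clearest pair lies in the coding sequence of Ndufa12, a complex I accessory subunit, and shares 40 of its 60 bases, marked in capitals. Both cross an intron on the plus strand of mm9, at chr10:93662720-93666034 (upstream) and chr10:93662740-93666054 (downstream).
Upstream probe: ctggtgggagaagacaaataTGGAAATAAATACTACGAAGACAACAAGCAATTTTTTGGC
Downstream probe: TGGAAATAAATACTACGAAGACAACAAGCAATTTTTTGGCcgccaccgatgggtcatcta
In macroangiopathy muscle the upstream probe was at 11.97, 12.21 and 11.56 and in huoxue muscle at 8.73, 8.96 and 9.44 (-2.87 ± 0.58, adjusted p = 0.00244). The downstream probe was at 14.08, 14.13 and 14.08 and at 14.32, 14.30 and 14.28 (0.21 ± 0.27, adjusted p = 0.71). The upstream probe was thus lower in every huoxue array, while the downstream probe, which begins 20 bases further, was slightly higher in every one. One more Ndufa12 probe was at 0.26.

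By slide, the upstream probe was at 8.27 to 9.64 on slide 3 against 9.91 to 11.48 in the other aorta arrays, and at 8.73 to 10.58 on slides 1 and 2 against 10.62 to 12.21 in the other muscle arrays. The downstream probe overlapped in both tissues (12.27 to 13.07 against 11.84 to 13.25, and 12.87 to 14.32 against 12.55 to 14.13). Between diabetic and healthy muscle the Ndufa12 probes gave 1.77 (adjusted p = 0.0565), 1.01 (adjusted p = 0.0165) and 0.20 (adjusted p = 0.70).

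Other members of this kind in huoxue muscle were Ndufa8, with probes at -1.47 (adjusted p = 0.0161) and 0.49, and Atp5b, whose 4 probes ran from -2.71 (adjusted p = 0.00033) to 0.12. Ndufc1 ran from -1.54 to 0.48 and Atp5f1 from -1.80 to 0.20. For Atp5b under rosiglitazone the range was -2.29 to 0.01. Of the 81 members 27 had several probes.

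**Figure D5:**
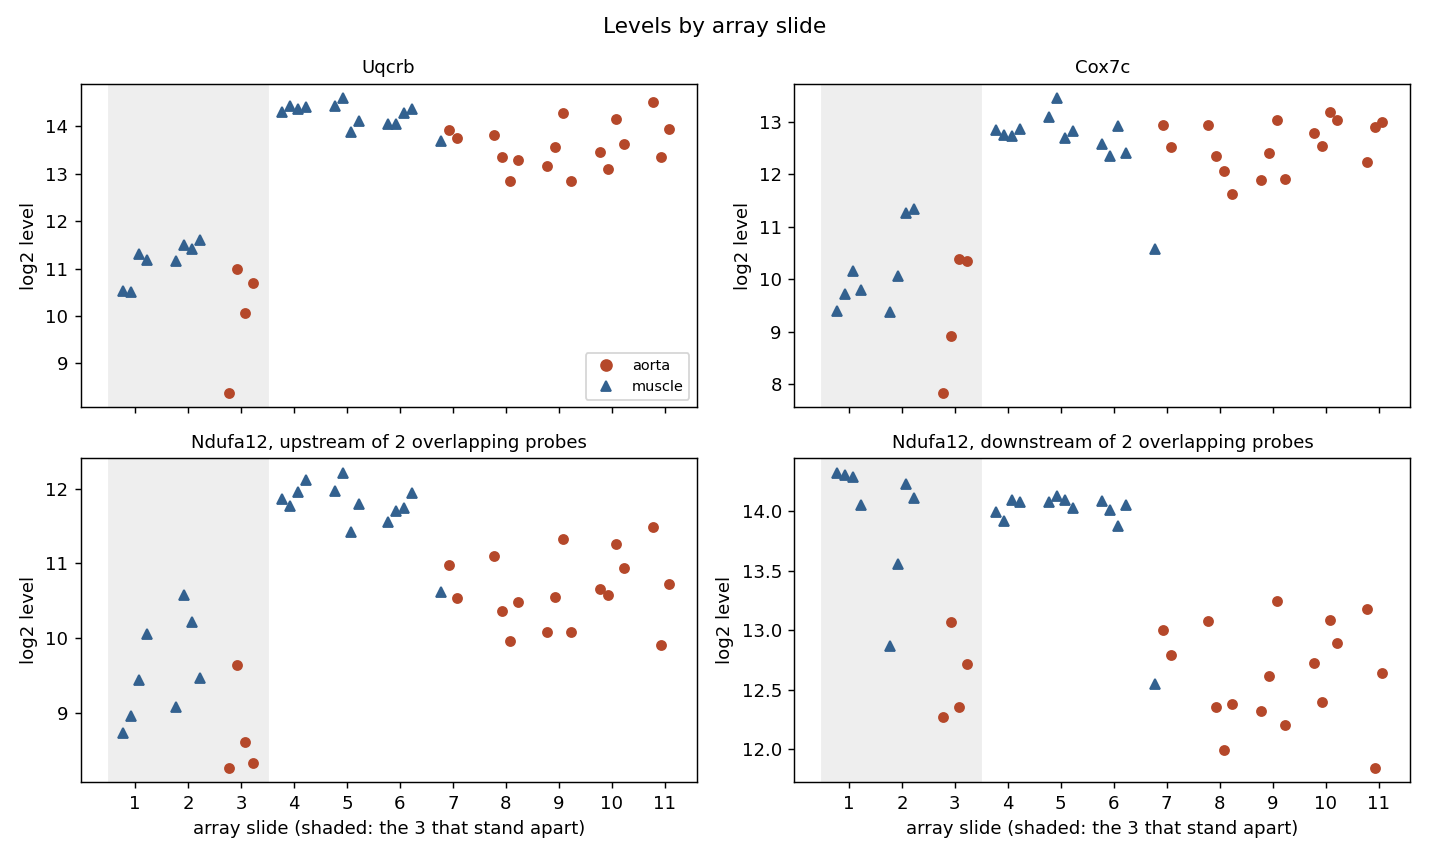
Log2 intensity (vertical axis) of Uqcrb, Cox7c and the 2 overlapping Ndufa12 probes on each array by slide (horizontal axis, 11 slides). The 3 slides that stand apart are shaded, and colours mark the tissue. Uqcrb and, in aorta, Cox7c are lower on the shaded slides without overlap, as is the upstream probe within each tissue. In muscle Cox7c overlaps through 1 array on slide 7 (10.59), and the downstream probe overlaps in both tissues.

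Related genes were also read under huoxue in muscle, where 4.26% of all genes were called. Of 30 assembly factors 4 were lower, among them Cox10 (-1.54) and Ecsit (-1.44), and Lyrm7 was higher (0.49). The mitochondrial transcription factor Tfam (-0.64) and Nrf1 (-0.55) were lower and Vdac2 (0.73) higher. In the muscle-only fit, where 15.2% of all genes were called, 4 of 10 skeletal fibre markers were lower.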

How the data were processed

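RNA of aorta and skeletal muscle was labelled with Cy3 and hybridized by the authors to Agilent mouse arrays (mm9 probe positions), 1 per sample. The deposited scanner files, made with Agilent Feature Extraction 10.7, hold spot and background intensity. The authors also deposited a table of normalized log2 values (column medians 5.361 to 5.363), used as an alternative. Its columns ran in the direction of the scanner data (r 0.965 to 0.977 per array), and its scale and centring stay unknown.

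Median intensities of 43379 spots were corrected with normexp (offset 0) and quantile normalized over 42 arrays in limma 3.58.1 (R 4.3.3), as the study's methods outline. Control spots were removed, non-uniform spots set missing, probes of a gene averaged and dim genes filtered out. A gene missing a probe on an array was missing there (4 member values). One fit with 14 means and eBayes gave 19 contrasts. Groups have 3 arrays, whose number limits precision. The methods give 3 mice per group, but no label ties an array to a mouse, so p-values measure the spread between samples, which may be technical. The script was tested on simulated data.

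Members and lists were chosen with earlier results of these data known. Named were 18 listed subunits, members with tissue forms, in each contrast the 3 largest called rises and falls (otherwise the 2 smallest p), up to 5 with disagreeing probes, and up to 3 called genes of each related list. A rule naming genes of like pattern was not used. Same-numbered samples of 1 tissue, which belong to different groups, did not deviate together (median r -0.02). That cannot show whether same-numbered aorta and muscle samples of a group came from 1 mouse. They were treated as unpaired.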

Additional observations from a re-analysis of the deposited data

How the results depend on the processing

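Counts of called members depended on the arrays fitted and on slides, and the cause was not tested. Fitting only the arrays compared gave 5 members for tissue, 0 for diabetic aorta, 39 for huoxue muscle, 17 for rosiglitazone muscle, and 2 and 3 for the differences between tissues of huoxue and rosiglitazone. Fits of 1 tissue gave 0 for diabetic aorta, 42 for diabetic muscle, 28 for huoxue muscle and 16 for rosiglitazone muscle. Of all genes these fits called 3.36%, 23%, 15.2% and 4.55%. For the other settings here the share of all genes is not given, so their counts cannot be read as particular to the members. A fixed slide block gave 2 for tissue and 1 for diabetic aorta, and could not be fitted for diabetic, huoxue or rosiglitazone muscle, for macroangiopathy or SHENQI aorta, or for differences between tissues other than yangyinyiqi. A random block gave 3 for diabetic and 3 for huoxue muscle, the batch term 1 and 0. Without the 3 slides diabetic muscle had 10 and the diabetic difference between tissues 2. The brightest probe per gene gave 11 for huoxue and 1 for rosiglitazone muscle. With 1 array left out the ranges were 11 to 18 for tissue, 0 to 6 for diabetic aorta, 1 to 5 for diabetic muscle, 1 to 3 for huoxue muscle, 0 to 3 for the diabetic difference between tissues, and 0 to 0 elsewhere.

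Sign turned for Ndufv3 by tissue with the brightest probe (-0.10), and with a fixed slide block for Atp5g3 by tissue (0.15), Atp5g1 in diabetic aorta (-0.46), Cox6a2 in rosiglitazone aorta (-2.83) and Atp5e in macroangiopathy muscle (0.0706). The batch term turned Cox6c (0.0710) and Uqcrb (0.52) in rosiglitazone muscle, and leaving out SHENQI muscle 3 turned Cox6a1 in SHENQI muscle, whose range with 1 array left out was -0.0174 to 0.348. The replicate block, although no label says that numbers pair samples, moved no count by over 1.5 times. With it 57 of 59 named values kept their side of the threshold. Offset 50, no filter, trend and robust options and the authors' values changed 1, 4, 1 and 3 of 59. Agilent's processed signal moved the median of all genes to 0.196 in diabetic muscle, where the member median was 0.64. Signal just above background limits Cox4i2, Cox7b2 and Cox8c.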
